A study of Mus musculus with 8 samples.

Results

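The ATF4 stress response genes examined here are 10 named genes: Atf4, Atf5, Ddit3, Trib3, Chac1, Asns, Sesn2, Nupr1, Cebpb and Ppp1r15a. A probe was taken for a gene when the RefSeq accession of the array design led to that gene's symbol, which gave 11 probes for the 10 genes among 18217 gene symbols on the array. Trib3 had 2 probes and each other gene had 1, and all 11 probes were well above background on all 8 arrays. The RNA was that of 2 lines of mouse embryonic fibroblasts (MEFs), one WT and one Keap1-/- (Keap1 null below), both carrying the letters TR, which the labels do not spell out. Each line was measured from culture dishes and from tumours grown in nude mice (nu/nu, which have no thymus but keep other leukocytes), with 2 arrays in each of the 4 groups. For the tumours (allografts), mice were given 10000000 cells of the WT line or 3000000 of the Keap1 null line, and tumours were taken at 100 to 150 mm3. There is 1 line per genotype, so genotype and line cannot be told apart, and whether replicates 1 and 2 are separate cultures or animals is not stated, so p-values measure the spread between these arrays only.

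ATF4 is a transcription factor of the integrated stress response. When kinases sensing amino acid shortage, unfolded protein in the endoplasmic reticulum (ER), heme shortage or double-stranded RNA phosphorylate the translation factor eIF2alpha, most protein synthesis slows while the Atf4 mRNA is translated more. ATF4 then switches on genes for amino acid supply, and with prolonged stress also Ddit3 (CHOP), Trib3 and Chac1. Because much of the control acts on translation, the level of Atf4 mRNA is not a measure of ATF4 protein. In cells without KEAP1, the factor NRF2 is no longer marked for degradation, and Slc7a11, the cystine importer, is a gene driven by both NRF2 and ATF4.

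Intensities from 1-colour (Cy3) arrays are given as a level, the log2 of the processed signal over the 75th percentile of its array, so that 0 is the 75th percentile and 1 unit is a doubling. Fold changes are differences of mean levels, with the standard error (SE) of 1 limma fit over all 8 arrays and p-values adjusted (Benjamini-Hochberg) over 22922 tested targets. A gene was called higher or lower at an adjusted p below 0.05. The share of probes well above background ran from 60.6% to 74.7% over the arrays and was lower on each dish array than on each allograft array. Keap1 itself was 1.82-fold lower in the Keap1 null line in dishes (limma, adjusted p = 0.0197) and 3.23-fold lower in allografts (0.000722), though whether its probe lies in the deleted part is not given in the sources used here.

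In dishes, the Keap1 null line had less mRNA of most of the stress response genes than the WT line, and in allografts it had more of all but Sesn2. Of the 10 genes, 7 were called lower in Keap1 null dishes and none higher, where 9.78% of all targets were called lower and 11.4% higher. Without scaling between arrays 4 were called in dishes, the calls of Atf4, Atf5 and Asns being lost. Their log2 fold changes were then -0.70, -0.70 and -0.76, against -0.83, -0.83 and -0.89 with scaling. Calls over all 22922 targets fell too, from 2602 higher and 2241 lower to 2623 in either direction. The loss is therefore not read as particular to these genes. In Keap1 null allografts 9 of the 10 genes were called higher and none lower, where 20.5% of all targets were called higher and 21.3% lower. The median log2 fold change of the 10 genes was -0.86 in dishes and 1.51 in allografts, against -0.05 and 0.00 over all targets. Ddit3 and Cebpb were called in allografts alone, and Sesn2 in neither growth.

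Allografts hold host cells beside the injected ones, and in such bulk RNA fewer cells of a type and less RNA per cell cannot be told apart. Of 11 tested macrophage markers, all were well above background in both allograft groups, while Adgre1, C1qc, Ccr2, Lyz2, Itgam and Fcgr1 were not above it on any dish array. Summed over the list, macrophage signal in units of the array's 75th percentile was 82.6 to 92.6 in WT allografts, 21.4 to 21.8 in Keap1 null allografts and 1.73 to 2.69 on dish arrays. Of these markers 10 were called lower and 1 higher in Keap1 null allografts. Sums of 7 skeletal muscle markers were 1.86 to 3.04 in WT and 10.7 to 17.7 in Keap1 null allografts, but 1 marker was called higher and none lower, and Myh4 was above background on neither Keap1 null allograft array. Sums of 5 neutrophil markers were 1.96 to 2.22 and 3.61 to 3.99 in the same order, but 1 marker was called higher and 2 lower. Endothelial sums, of 8 markers, were 10.2 to 10.4 and 7.45 to 8.67, with 3 markers called lower and none higher. Lymphocyte sums were 1.22 to 1.63 and 0.189 to 0.324, with Cd3g and Ncr1 not above background on either Keap1 null allograft array, and adipocyte sums 5.36 to 17.2 and 12.6 to 16.0. Fibroblast markers were well above background on every array apart from Lum, which was above it on neither WT dish array, and their sums were 34.6 to 35.9 in WT dishes, 36.6 to 40.1 in Keap1 null dishes, 450 to 460 in WT allografts and 428 to 460 in Keap1 null allografts. Single fibroblast markers differed between the lines: of 8, 5 were called higher and 1 lower in Keap1 null dishes (median log2 fold change 2.59), and 2 higher and 3 lower in Keap1 null allografts (median -0.47), and their part in the values of the 10 genes was not tested. The part of host cells in the allograft values of the 10 genes was not tested.

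**Figure D1:**
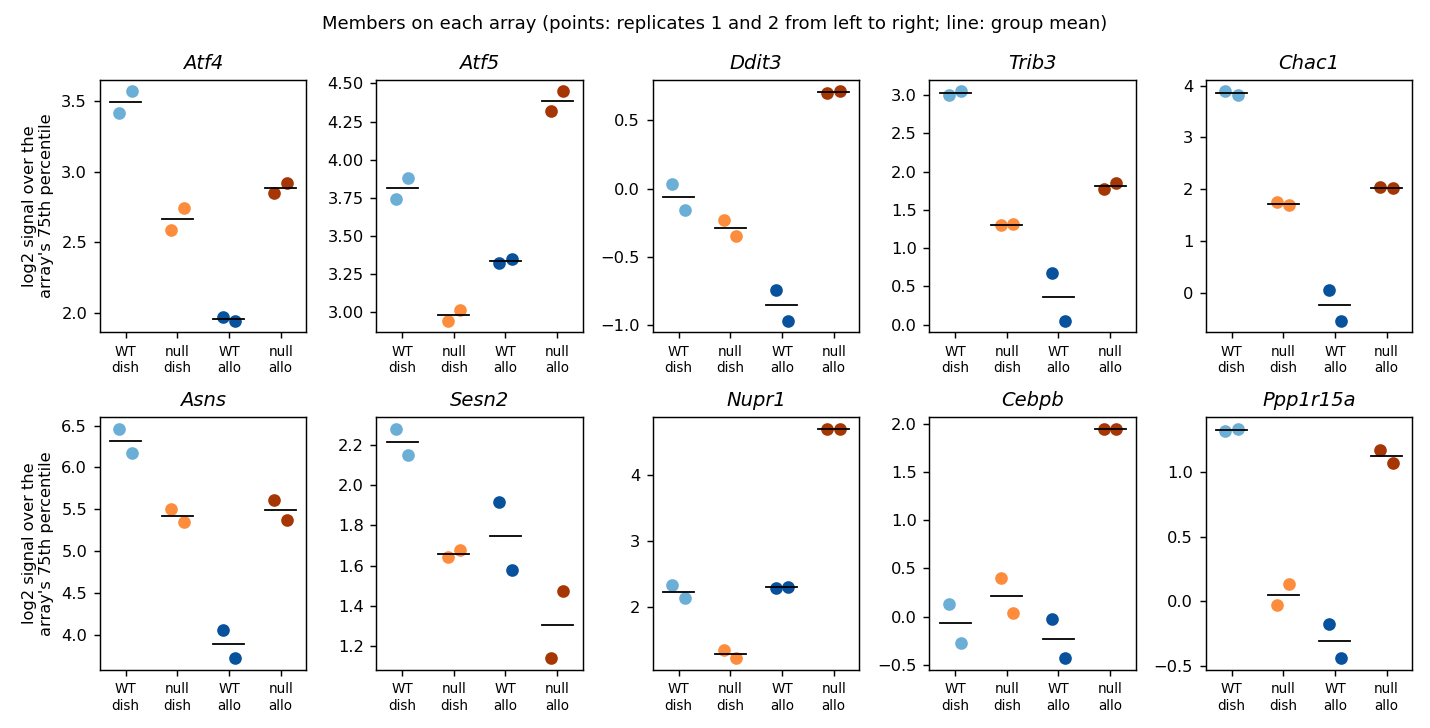
Level of each of the 10 genes (y axis, log2 of the signal over the array's 75th percentile, a separate scale in each panel) on the 2 arrays of each group (points) with the group mean (line). WT dish and Keap1 null allograft arrays lie above the other arrays for Atf4, Atf5, Ddit3, Trib3, Chac1, Ppp1r15a and, apart from 1 array, Asns; Nupr1 and Cebpb stand high in the Keap1 null allografts alone.

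Atf4, the factor at the centre of the response, had levels, on replicates 1 and 2, of 3.42 and 3.57 (WT dish), 2.58 and 2.74 (Keap1 null dish), 1.97 and 1.94 (WT allograft) and 2.85 and 2.92 (Keap1 null allograft). The WT line thus held both the highest and the lowest arrays, dish above allograft, with the Keap1 null arrays between them, and no 2 groups overlapped. In dishes Atf4 was 1.78-fold lower in the Keap1 null line (log2 fold change -0.83 ± 0.10 SE, adjusted p = 0.00324, and 0.0643 without scaling between arrays). In allografts it was 1.91-fold higher (0.93 ± 0.10, adjusted p = 0.000949).

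Atf5, a related bZIP factor that is itself translated more when eIF2alpha is phosphorylated, had levels, on replicates 1 and 2, of 3.74 and 3.88 (WT dish), 2.95 and 3.02 (Keap1 null dish), 3.32 and 3.35 (WT allograft) and 4.32 and 4.45 (Keap1 null allograft). Here the Keap1 null allografts stood highest and the Keap1 null dishes lowest, again with no overlap between groups. Its line difference was close to that of Atf4: 1.78-fold lower in dishes (adjusted p = 0.00266, and 0.0579 without scaling) and 2.07-fold higher in allografts (1.05 ± 0.10, adjusted p = 0.00048).

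Ddit3 encodes CHOP, a bZIP factor tied to cell death under lasting ER stress. On replicates 1 and 2 its levels were 0.036 and -0.16 (WT dish), -0.23 and -0.34 (Keap1 null dish), -0.74 and -0.97 (WT allograft) and 0.70 and 0.71 (Keap1 null allograft). The dish groups lay close together, and the difference between them did not pass the test (log2 fold change -0.23, 95% interval -0.53 to 0.07, adjusted p = 0.261). In allografts Ddit3 was 2.95-fold higher in the Keap1 null line (1.56 ± 0.12, adjusted p = 0.000236).

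Cebpb encodes C/EBPbeta, a bZIP factor that can pair with ATF4 and that also serves in inflammation and fat cell formation. On replicates 1 and 2 its levels were 0.13 and -0.27 (WT dish), 0.40 and 0.041 (Keap1 null dish), -0.025 and -0.43 (WT allograft) and 1.94 and 1.95 (Keap1 null allograft). The WT dish arrays overlapped with those of the Keap1 null dishes and with those of the WT allografts. The Keap1 null allografts stood above all of them. Cebpb did not pass the test in dishes (0.29, 95% interval -0.23 to 0.81, adjusted p = 0.428). In allografts it was 4.51-fold higher in the Keap1 null line (2.17 ± 0.21, adjusted p = 0.00058).

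Chac1, which breaks down glutathione, had the widest span of group means among the 10 genes, 16.9-fold. On replicates 1 and 2 its levels were 3.89 and 3.81 (WT dish), 1.75 and 1.69 (Keap1 null dish), 0.069 and -0.53 (WT allograft) and 2.04 and 2.03 (Keap1 null allograft). The order of the groups was that of Atf4, with no overlap. Chac1 was 4.37-fold lower in Keap1 null dishes (-2.13 ± 0.19, adjusted p = 0.00106) and, in allografts, 4.81-fold higher (2.26 ± 0.19, adjusted p = 0.000349).

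Trib3, a pseudokinase that feeds back on ATF4, followed the same order. Its brighter probe read 3.00 and 3.05 (WT dish), 1.30 and 1.31 (Keap1 null dish), 0.67 and 0.049 (WT allograft) and 1.78 and 1.85 (Keap1 null allograft). It was 3.30-fold lower in Keap1 null dishes (adjusted p = 0.00259) and, in allografts, 2.74-fold higher (adjusted p = 0.0023). The second Trib3 probe, in a fit over all 30358 tested probes, gave 3.57-fold lower (adjusted p = 0.00474) and 2.81-fold higher (adjusted p = 0.005), so both probes had the same signs and calls. The 2 WT allograft arrays differed by 0.62 in Trib3, the widest gap between replicates of any of the 10 genes, and leaving out either array kept the Keap1 null excess in allografts between 1.15 and 1.77 on the log2 scale.

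Asns makes asparagine and is a classic gene of the amino acid response. On replicates 1 and 2 its levels were 6.46 and 6.17 (WT dish), 5.50 and 5.35 (Keap1 null dish), 4.06 and 3.72 (WT allograft) and 5.61 and 5.37 (Keap1 null allograft). The Keap1 null dish and allograft arrays overlapped, while the WT line held the highest and lowest values. Asns was 1.86-fold lower in Keap1 null dishes (-0.89 ± 0.17, adjusted p = 0.0172) and, in allografts, 3.04-fold higher (1.60 ± 0.17, adjusted p = 0.000884). The dish call did not hold in every fit, though the log2 fold change kept its sign. It was lost without Keap1 null dish replicate 1 (-0.97) or replicate 2 (-0.82), and without WT dish replicate 1 (-0.74). It was also lost without scaling (-0.76, limma adjusted p = 0.0865).

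Ppp1r15a encodes GADD34, the subunit that directs a phosphatase to eIF2alpha and so restores protein synthesis. On replicates 1 and 2 its levels were 1.32 and 1.34 (WT dish), -0.027 and 0.13 (Keap1 null dish), -0.17 and -0.44 (WT allograft) and 1.17 and 1.07 (Keap1 null allograft). WT dishes and Keap1 null allografts were both high and the other 2 groups low, with no overlap. Ppp1r15a was 2.42-fold lower in Keap1 null dishes (adjusted p = 0.00133) and, in allografts, 2.69-fold higher (adjusted p = 0.000354).

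Nupr1, a small chromatin-associated stress protein, had levels, on replicates 1 and 2, of 2.33 and 2.13 (WT dish), 1.34 and 1.21 (Keap1 null dish), 2.28 and 2.30 (WT allograft) and 4.71 and 4.70 (Keap1 null allograft). The WT groups overlapped, the Keap1 null dishes lay below them and the Keap1 null allografts far above. Nupr1 was 1.93-fold lower in Keap1 null dishes (adjusted p = 0.00209) and, in allografts, 5.34-fold higher (2.42 ± 0.10, adjusted p = 3.16e-05).

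Sesn2 encodes a sestrin, a leucine sensor that restrains the growth kinase mTORC1, and is known as a target of p53 and NRF2 as well as ATF4. On replicates 1 and 2 its levels were 2.28 and 2.15 (WT dish), 1.64 and 1.68 (Keap1 null dish), 1.92 and 1.58 (WT allograft) and 1.14 and 1.47 (Keap1 null allograft). The WT dishes stood highest, but the whole span of its group means was 1.88-fold. Neither line difference passed the test, in dishes (-0.55, 95% interval -0.96 to -0.15, adjusted p = 0.0654) or in allografts (-0.44, 95% interval -0.84 to -0.035, adjusted p = 0.0799). On slide 1 the allograft difference was -0.78 and on slide 2 it was -0.10.

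**Figure D2:**
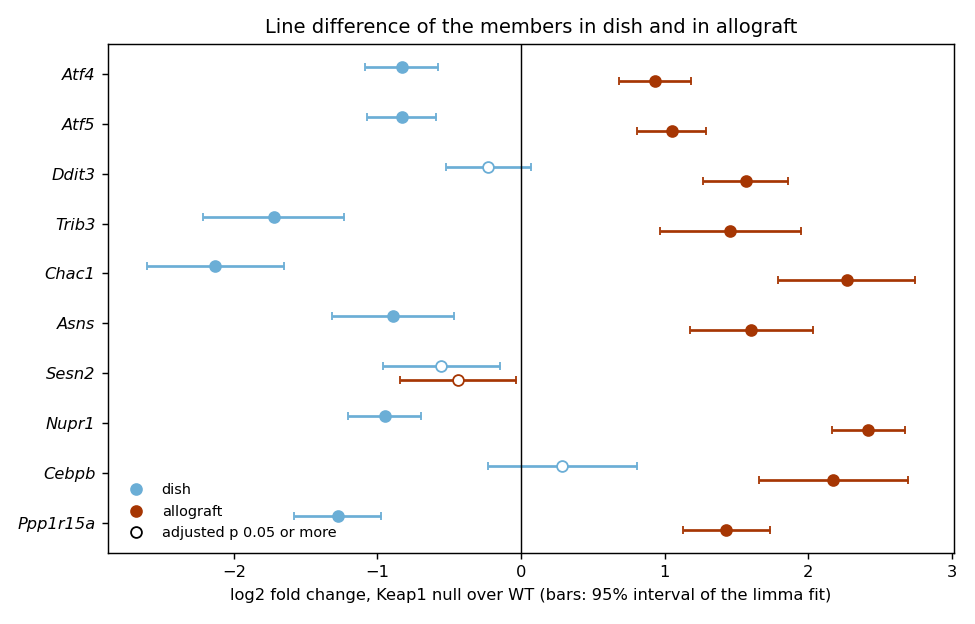
Log2 fold change of each gene between the lines (x axis, Keap1 null over WT; bars are the 95% interval of the limma fit) in dishes and in allografts, with open points where the adjusted p was 0.05 or more. In dishes the values run from -2.13 (Chac1) to 0.29 (Cebpb), and in allografts 9 of the 10 lie between 0.93 (Atf4) and 2.42 (Nupr1), with Sesn2 at -0.44.

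Read array by array, 9 of the 10 genes had no overlap between the lines in dishes (all lower in Keap1 null; Cebpb overlapped), where 58.7% of all targets did not overlap. In allografts all 10 had none, 9 higher and Sesn2 lower, against 70.2% of all targets. A gene called lower in Keap1 null dishes and also higher in Keap1 null allografts was seen in 7 of 10 (Atf4, Atf5, Trib3, Chac1, Asns, Nupr1 and Ppp1r15a), and in 1.95% of all targets. The 2 comparisons share no arrays, but they share the estimate of each gene's spread. The arrays lay on 2 slides, each with 1 array of every group. All 10 genes had the same sign on both slides in either growth, which follows wherever the arrays of the lines do not overlap.

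The test of whether the line difference differs between allograft and dish is the interaction term of the fit. It was called for 9 of the 10 genes, each in the direction of a larger Keap1 null to WT ratio in allografts, where 15.8% of all targets were called in that direction and 17.0% in the other. The ratio was 21.0-fold larger in allografts for Chac1 (interaction 4.39 ± 0.27, adjusted p = 0.000237), 10.3-fold for Nupr1 (3.37 ± 0.15, adjusted p = 9.79e-05) and 9.05-fold for Trib3 (3.18 ± 0.28, adjusted p = 0.000683). It was 6.52-fold larger for Ppp1r15a, 5.64-fold for Asns, and between 3.39-fold (Atf4) and 3.70-fold (Cebpb) for the other 4 called genes. The exception was Sesn2, at 0.12 (95% interval -0.46 to 0.69, adjusted p = 0.762). All 9 calls kept their direction and stayed below an adjusted p of 0.05 under each alternative tried, including 8 fits that each left out 1 array.

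Between dish and allograft, most of the 10 genes were lower in WT allografts than in WT dishes. In the Keap1 null line 5 were called higher in allografts, not far from the share of all targets (35.8%), and some directions depended on scaling. In the WT line 8 of 10 genes were called lower in allografts and none higher, against 32.2% and 35.8% of all targets. Without scaling 5 of the 10 were called. Calls over all targets fell as well, from 7383 lower and 8217 higher to 11900 in either direction. Chac1 had the largest fall of the 10, 16.9-fold (-4.08 ± 0.19, adjusted p = 1.7e-05), and Trib3 was 6.35-fold, Asns 5.38-fold, Ppp1r15a 3.10-fold, Atf4 2.91-fold and Ddit3 1.74-fold lower. Atf5 (-0.47, adjusted p = 0.00581) and Sesn2 (-0.47, adjusted p = 0.0447, and 0.0571 with the replicate number, which is also the slide, as a block) moved least among those called. Nupr1 (0.06) and Cebpb (-0.16) did not pass the test.

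In the Keap1 null line 5 genes were called higher in allografts and none lower, against 35.8% and 29.1% of all targets. Nupr1 rose 10.8-fold (3.43 ± 0.10, adjusted p = 5.32e-06), Cebpb 3.31-fold, Atf5 2.65-fold, Ppp1r15a 2.10-fold and Ddit3 1.99-fold. Atf4 (0.22), Trib3 (0.51), Chac1 (0.31), Asns (0.07) and Sesn2 (-0.35) did not pass the test.

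These growth differences depended on how arrays were scaled. Dish arrays had a median signal of 44.8 to 61.9 and allograft arrays one of 106 to 137, while their 75th percentiles, 1084 to 1330 and 1165 to 1546, overlapped. Centring each array on its median moved the median of all targets from -0.02 to -1.04 in the WT line and from 0.03 to -0.84 in the Keap1 null line. Under that scaling all 10 genes were called lower in WT allografts, where 19301 of 22922 targets were called in either direction. The share of all targets called lower was not counted. With their median at -1.04, the count is not read as particular to these genes. Nupr1 (-0.96) was among the 10, near the median of all targets. In the Keap1 null line Atf4 (-0.64, adjusted p = 0.00125) and Asns (-0.80, adjusted p = 0.0146) turned to lower, while the rises of Ddit3 (0.13, adjusted p = 0.502) and Ppp1r15a (0.20, adjusted p = 0.236) were no longer called. Sesn2 (-1.22, adjusted p = 0.000749) was then called lower too. With quantile normalization Atf4 (0.45, adjusted p = 0.0134) and Trib3 (0.66, adjusted p = 0.0407) were called higher in Keap1 null allografts, and Nupr1 (0.46, adjusted p = 0.00761) in WT allografts. Atf5 in the WT line was at 0.01 with quantile normalization (adjusted p = 0.919) and at -0.09 without scaling (0.737). Directions that held under each of the 4 scalings in the WT line were the falls of Atf4, Ddit3, Trib3, Chac1, Asns, Sesn2 and Ppp1r15a, though without scaling Ddit3 (adjusted p = 0.121) and Sesn2 (0.74) were not called, nor Sesn2 with quantile normalization (0.634).

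**Figure D3:**
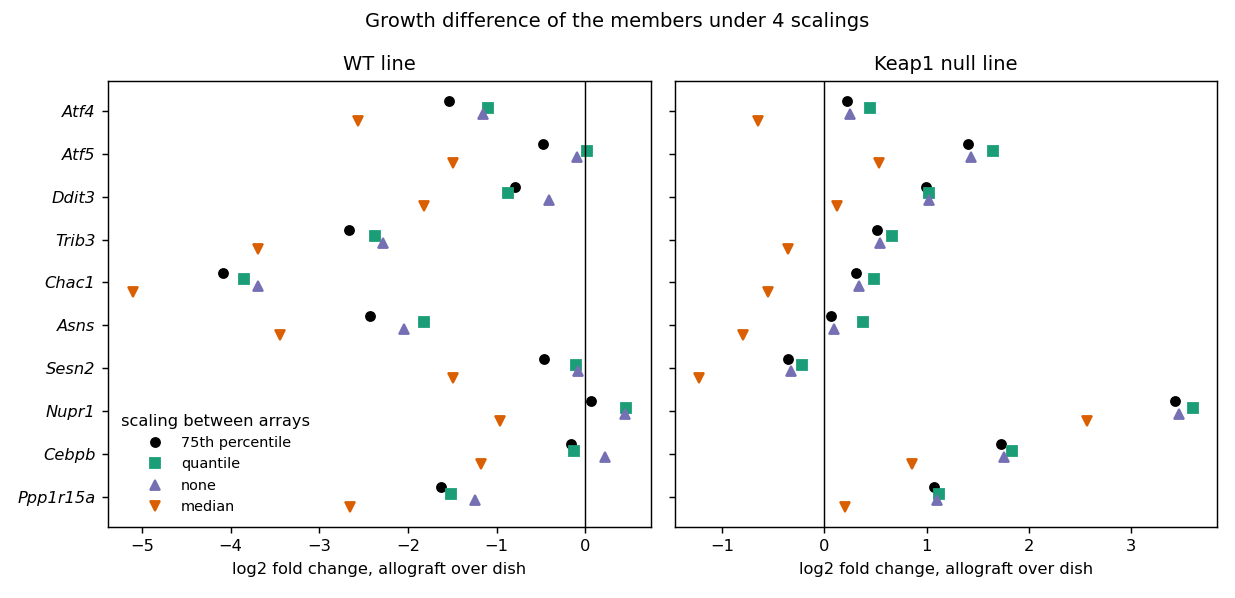
Log2 fold change of each gene between allograft and dish (x axis) in the WT line and the Keap1 null line, under 4 scalings between arrays (symbols). Scaling by the median shifts every gene toward lower values; Chac1 in the WT line stays between -5.10 and -3.70, and Nupr1 in the Keap1 null line between 2.56 and 3.60.

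The sequence in front of the genes was searched for the C/EBP-ATF response element, the site where ATF4 binds together with a C/EBP factor, by its core TGATGNAA on both strands, from 250 bases before to 50 bases after each RefSeq start (assembly GRCm38.p6). Of the 10 genes, all of which have an entry, 4 held a match: Asns, Chac1, Nupr1 and Trib3. Over all 27025 genes with an entry 4.51% did, and 3.97% of the 32851 windows. The 10 genes were listed as ATF4 response genes, so their share beside that of all genes is a description. Chac1, Nupr1 and Trib3 had the largest interaction values of the 10, an order taken from these same data. Asns, with a match, had a smaller interaction (2.50) than Ppp1r15a (2.70), without one, and a link was not tested. Each stretch is written 5′ to 3′ on the strand of the gene with the match in capitals. Positions count from the start, with -1 the base before it. Chac1 has the match at -193 to -186, on the opposite strand, in the stretch at chr2:119351013-119351092 (plus strand). Nupr1 has it at -110 to -103, on the opposite strand, at chr7:126625537-126625616 (minus strand). Asns has it at -23 to -16, on the gene's own strand, at chr6:7693210-7693289 (minus strand). Trib3 has it at 15 to 22, on the opposite strand, at chr2:152344028-152344057 (minus strand).
Chac1: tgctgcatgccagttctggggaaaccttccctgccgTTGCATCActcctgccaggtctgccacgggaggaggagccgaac
Nupr1: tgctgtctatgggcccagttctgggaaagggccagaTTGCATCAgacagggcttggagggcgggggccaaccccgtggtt
Asns: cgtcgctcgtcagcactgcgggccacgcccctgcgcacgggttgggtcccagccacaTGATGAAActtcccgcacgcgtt
Trib3: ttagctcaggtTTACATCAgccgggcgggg

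Chac1 and Nupr1 hold the same 8 letters. A second motif, the core TGACGT of the cAMP response element, which bZIP factors of the CREB and ATF family bind, was found in 1 of the 10 genes and in 8.37% of all genes with an entry. Ppp1r15a has it on both strands, overlapping, from -12 to -5, in the stretch at chr7:45526269-45526348 (minus strand), with both matches in capitals.
Ppp1r15a: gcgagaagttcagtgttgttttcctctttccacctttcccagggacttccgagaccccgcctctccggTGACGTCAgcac
Atf4, Atf5, Ddit3, Cebpb and Sesn2 held neither set of letters in these windows, which says nothing of sites farther away. These are matches of letters, and no binding was measured.

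Other genes of the pathway were read from lists chosen with earlier results of these data known, so their counts are a description. Upstream of ATF4, the list of 6 genes for eIF2alpha, its kinases and its phosphatase had 2 called lower and none higher in Keap1 null dishes, and 2 lower and 1 higher in Keap1 null allografts. Eif2ak3 (PERK, which senses ER stress) and Eif2ak1 (HRI, which senses heme), both added after the values were seen, passed the test in neither growth (log2 fold changes of -0.20 to 0.09). Eif2ak4 (GCN2, which senses uncharged tRNA) was 1.81-fold lower and Eif2ak2 (PKR, which senses double-stranded RNA and is induced by interferon) 2.20-fold lower in Keap1 null allografts (adjusted p = 0.00267 and 0.00138), with no call in dishes. Ppp1r15b, the counterpart of Ppp1r15a that cells make without stress, was 1.30-fold lower in Keap1 null dishes (adjusted p = 0.0447) and, in allografts, 1.39-fold higher (adjusted p = 0.012). Eif2s1, which encodes eIF2alpha, was 1.32-fold lower in Keap1 null dishes (adjusted p = 0.0196) and not called in allografts (-0.028, adjusted p = 0.82).

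Among 8 bZIP partners, 3 were called lower and 1 higher in Keap1 null dishes, and 3 higher and 1 lower in Keap1 null allografts. Cebpd was 1.64-fold lower in dishes (adjusted p = 0.0251) and 4.42-fold higher in allografts (adjusted p = 0.000186), the same signs as most of the 10 genes. Atf3, itself a gene of the stress response, was 2.22-fold lower in Keap1 null dishes (adjusted p = 0.000507) but not called in allografts (-0.17, adjusted p = 0.166). Cebpa, a factor of fat, liver and myeloid cells, was 4.19-fold lower in Keap1 null allografts (adjusted p = 0.000766), and Fos was 2.20-fold higher in Keap1 null dishes (adjusted p = 0.00677).

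The list of 10 other ATF4 targets had medians of the same signs as the members, though single genes differed. In Keap1 null dishes 6 were called lower and 2 higher (median -0.81), and in Keap1 null allografts 8 were called higher and none lower (median 1.42). The stress hormone Fgf21 was at least 2.29-fold lower in Keap1 null dishes, where it was not well above background, and in allografts 7.66-fold higher (adjusted p = 6.75e-05). For such a bound, the dim group takes, on each array, its own signal or the dimmest signal that still counted as above background, whichever is greater. The peptide gene Adm2 was at least 3.04-fold lower in dishes and at least 1.60-fold higher in allografts. Stc2 was 2.06-fold higher in dishes and 23.3-fold higher in allografts, while Pck2, mitochondrial PEP carboxykinase, was 3.03-fold lower in dishes (adjusted p = 0.000374) and not called in allografts (-0.02, adjusted p = 0.885).

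Genes of amino acid supply had medians of these signs as well. Of 18 tested, 11 were called lower and 1 higher in Keap1 null dishes (median -0.61), and 15 higher and none lower in Keap1 null allografts (median 1.21). Psat1, which makes serine, was 1.70-fold lower and then 3.31-fold higher (adjusted p = 0.00352 and 7.61e-05). The glycine transporter gene Slc6a9 was 1.95-fold lower and 3.90-fold higher (adjusted p = 0.00154 and 4.93e-05), and the cationic amino acid transporter gene Slc7a3 was 4.14-fold higher in allografts and not called in dishes (0.33, adjusted p = 0.0858). The one gene called higher in dishes was Slc7a11, at 16.2-fold (adjusted p = 6.02e-05), and it was 278-fold higher in allografts.

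Aminoacyl-tRNA synthetases, which load amino acids onto tRNA, had smaller medians of the same signs. Of 20, 8 were called lower and none higher in Keap1 null dishes (median -0.35), and 12 higher and 1 lower in Keap1 null allografts (median 0.42). The cysteine enzyme Cars was 1.88-fold lower and 2.02-fold higher (adjusted p = 0.00623 and 0.00196), and the tyrosine enzyme Yars 1.81-fold lower and 1.48-fold higher. Eprs, for glutamate and proline, and Mars1, for methionine, were not called in dishes (log2 fold changes of 0.009 and 0.071, adjusted p = 0.981 and 0.673) and were 1.82-fold and 1.84-fold higher in allografts (adjusted p = 0.00716 and 0.000713). In the WT line all 20 were called lower in allografts than in dishes (median -1.42). The 20 tested ER folding genes of the ATF6 and XBP1 branches, the other arms of the unfolded protein response, had 3 called lower and 1 higher in dishes (median -0.13), and 13 higher and none lower in allografts (median 0.48). Hyou1, an ER chaperone, was 2.55-fold higher (adjusted p = 0.00202), Atf6 2.08-fold and Dnajb9 1.84-fold higher in Keap1 null allografts, with no call in dishes (0.55, -0.40 and -0.31), and Herpud1, a gene of ER-associated degradation, was 2.02-fold lower in dishes (adjusted p = 0.0123) and not called in allografts.

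**Figure D4:**
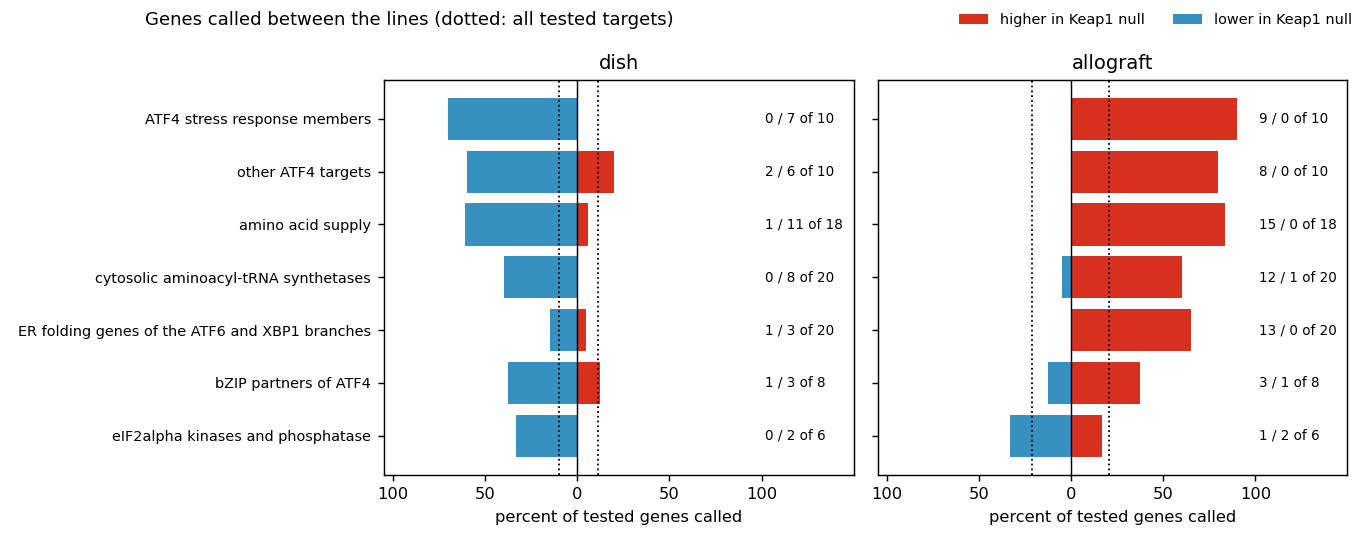
Percent of the tested genes of each list called higher (right) or lower (left) in Keap1 null than in WT, in dishes and in allografts; the numbers give genes called higher / lower of those tested, and dotted lines the share of all targets. The members, the other ATF4 targets and amino acid supply are mostly called lower in dishes (7, 6 and 11 genes) and higher in allografts (9, 8 and 15 genes).

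The genes with the pattern most like the 10 were sought over the 4 group means, each gene centred on its own mean, among 12526 other genes well above background on all 8 arrays. The median member profile was 0.61 in WT dishes, -0.21 in Keap1 null dishes, -0.76 in WT allografts and 0.39 in Keap1 null allografts. Ttc39b, Csrnp1, Tnfrsf22, Mef2d and Vma21 lay nearest, with root mean square differences of 0.055 to 0.081 on the log2 scale, where the median gene differed by 0.589. Within the 10, Atf4 (0.157) and Ppp1r15a (0.196) lay nearest to that profile, and Nupr1 (1.16) and Chac1 (0.963) farthest. Nearest to Atf4 alone were Epha2 (0.051), Cars (0.073), Nus1 (0.090), Dusp16 (0.095) and Maff (0.104). With 4 group means and so many genes, close matches are a description only.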

How the data were processed

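Total RNA (500 ng per labelling) was read on 8 arrays. Per the file headers, the deposited intensities come from Agilent's Feature Extraction software; its processed signal has background and a spatial trend removed and no scaling between arrays. The deposited value table holds the same intensities, rounded (within 0.496% of each spot; the medians of its columns lie between 39.4 and 124), so its scale is linear, with no centring. Other flags and codes of the spots are as deposited. The files pair no probe with a symbol; accessions were matched to RefSeq (GRCm38.p6), which named 26690 of 41174 probes. The headers name mm9, so RefSeq coordinates are given only with the RefSeq promoter sequences, which come from that table.

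With R 4.3.3 and limma 3.58.1, log2 processed signal minus the array's 75th percentile was fitted as 4 group means (4 residual and 1.83 prior degrees of freedom). Control and outlier spots were left out (none of a member), and repeated spots averaged. Probes were tested where the scanner software marked both arrays of some group as well above background (30358 probes), and the brightest tested probe stood for a gene. The fit was run on simulated data with noise independent between arrays, which does not test deviations shared by arrays of the same replicate number. Exact permutation of 2 against 2 arrays cannot go below 0.333 and was not used. Named list genes are up to 4 per list with the largest called line differences. Members and lists were chosen with earlier results of these data known.

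Replicate numbers coincide with slides, and deviations from group means correlated between same-numbered arrays (0.25 to 0.43 over targets), so the number was used as a block in an alternative. Each group sat at 1 position on both slides, so position and group cannot be told apart. The scanner files hold no mean signal, so normexp (offset 50) used the median signal. With 2 arrays per group, precision is limited by their number.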

Additional observations from a re-analysis of the deposited data

Results flagged for a closer look

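For 9 of the 10 genes the line difference in allografts differed from that in dishes by the interaction term, a test of the difference itself. On the log2 scale the difference between them was 1.76 for Atf4, 1.88 for Atf5, 1.79 for Ddit3, 3.18 for Trib3, 4.39 for Chac1, 2.50 for Asns, 3.37 for Nupr1, 1.89 for Cebpb and 2.70 for Ppp1r15a, all with limma adjusted p of 0.00558 or lower. For 7 of them both line differences were called, with opposite signs. Host cell content differs between dish and allograft, and its part was not tested.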

How the results depend on the processing

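Each comparison was refitted under 10 other settings (9 for the interaction, which needs all groups) and with each of the 8 arrays left out, where the lone array of a group is assumed to vary like the other groups. Of 38 called differences of single genes, 30 kept direction and call throughout, among them all interaction calls and all line differences in allografts. Without scaling, 4 genes were called in dishes (7 in the report) and 5 between growths in WT (8 in the report). Calls over all 22922 targets fell as well, to 2623 and 11900 in the same order, in either direction. Leaving out arrays gave 6 to 7 calls in dishes, 9 in allografts, 7 to 8 between growths in WT, 5 to 7 in Keap1 null and 9 for the interaction. The replicate block, which is the slide block too, gave 7, 9, 7, 5 and 9 in the same order and ended the call of Sesn2 in WT alone. Signs turned with median scaling in Keap1 null growth (Atf4 -0.64, Trib3 -0.36, Chac1 -0.55, Asns -0.80) and WT growth (Nupr1 -0.96); with quantile normalization for Atf5 in WT growth (0.014, the one called value to turn) and the Sesn2 interaction (-0.11); and without scaling for the Sesn2 interaction (-0.24) and Cebpb in WT growth (0.23). Leaving out 1 array also turned signs: Asns in Keap1 null growth ranged from -0.048 (without Keap1 null allograft array 1; -0.007 without Keap1 null dish array 2) to 0.187, the Sesn2 interaction from -0.055 (without WT allograft array 2; -0.052 without Keap1 null allograft array 2) to 0.285, Nupr1 in WT growth from -0.035 (without WT dish array 2) to 0.163, and Cebpb in WT growth from -0.36 to 0.044 (without WT allograft array 2; 0.042 without WT dish array 1). None of these was called. In dishes Sesn2 was called lower with median scaling (adjusted p = 0.0345), array weights (0.0453), the 4 dish arrays alone (0.0444) and probes above background on all arrays (0.0445), and in allografts with quantile normalization (0.0482) and without scaling (0.0258).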

Other observations

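The genes here were named after their values were seen. Among the other ATF4 targets, Ddit4, Vldlr, Stc2, Pck2 and Xpot did not show the calls of most members, lower in dishes and higher in allografts. Xpot was at 0.26 in dishes and 1.38 in allografts (limma adjusted p = 0.307 and 0.000889). Ddit4, an mTORC1 inhibitor also induced by hypoxia and glucocorticoids, was called in neither growth (log2 fold changes of -0.16 in dishes and -0.03 in allografts, limma adjusted p = 0.308 and 0.823). Vldlr, a lipoprotein receptor, was higher in the Keap1 null line in both growths (1.53-fold and 2.38-fold, adjusted p = 0.0305 and 0.00108). Gdf15, a stress hormone, did show the calls of most members, 2.51-fold lower in Keap1 null dishes and, in allografts, 2.77-fold higher (adjusted p = 0.00385 and 0.00118). So did Cebpg, the C/EBP partner of ATF4 (1.81-fold lower and 1.79-fold higher, adjusted p = 0.00517 and 0.00267). Xbp1, the factor of another arm of the unfolded protein response, was at -0.05 in both growths with no call (adjusted p = 0.792 and 0.737). Of the 20 tested ER folding genes, its list, 13 were called higher and none lower in Keap1 null allografts, so its mRNA level does not stand for that arm.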
